A study of Oryza sativa Indica Group with 6 samples.

Results

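WD40 repeat proteins fold into a propeller of blades that other proteins bind, and they serve as scaffolds in many complexes. The rice genes considered here are those whose symbol or a synonym is OsWD40 followed by a number and which have a probe set assigned to 1 gene. They were 2 of 17905 genes with such a probe set, OsWD40-80 (RGB1, LOC4333680) and OsWD40-81 (LST8, LOC4333729). These are 2 genes of a family that is much larger in plants, so the values below describe these genes and not the family. Each has 1 such probe set, so none had to be chosen among several by its mean.

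RGB1 encodes the beta subunit of the heterotrimeric G protein, which together with a gamma subunit binds the alpha subunit and passes on signals from the plasma membrane. LST8 is a subunit of the TOR kinase complex, which in eukaryotes ties growth and protein synthesis to nutrients and energy and holds back autophagy. In plants a G protein beta subunit acts in growth and stress signalling, and the role of LST8 in growth is known from Arabidopsis. In the reference annotation both genes lie on chromosome 3, with 52 other protein-coding genes between them.

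The samples were seedlings of 3 Basmati lines that each carry a T-DNA insertion, OsPE, Osoc and Ossl, labelled as Oryza sativa Indica Group. The seedlings were taken 15 days after germination, grown under what the labels call optimal conditions. Each line was measured on 2 Affymetrix rice arrays, labelled as biological replications, from 8 µg of total RNA per sample. The sources used here give neither the insertion sites nor the meaning of the line names, nor whether a line stems from 1 insertion event. An untransformed line was not analysed here, and each line was set against the others. Seedling RNA was measured and not that of single cell types, so fewer cells of a type and less RNA per cell cannot be told apart.

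Of 6 leaf markers all 6 exceeded the 40th percentile of every array, among them RBCS and CAB2R, while of 5 root markers only Lsi1 did. Of 6 grain markers 2 did, GLB1 and GLUA2, which are storage protein genes, though the plan took grain markers to be absent from seedlings. The summed signal of the leaf markers was 129944 to 130888 in OsPE, 124652 to 130798 in Osoc and 127618 to 147563 in Ossl. That of the root markers was 1641 to 1793, 1615.3 to 1615.8 and 1537 to 1557, and that of the grain markers 4069 to 4310, 3169 to 3412 and 4028 to 4035. The sums rest on the brightest genes of each list. PORA, a protochlorophyllide reductase, was 2.24-fold higher in Osoc than in OsPE (limma adjusted p = 1.22e-05) and its log2 difference of Ossl from Osoc was -1.07 (8.36e-06). GLB1 fell by 0.39 on the log2 scale in Osoc against OsPE (adjusted p = 0.0058) and was 0.42 higher in Ossl than in Osoc (0.00252). With a variance prior that ignores the signal level, the call of PORA in Osoc against OsPE ended (limma adjusted p = 0.0832). Both calls of GLB1 ended as well (0.223 and 0.153), while PORA in Ossl against Osoc still passed (0.0423). The call of GLB1 in Osoc against OsPE ended without OsPE replicate 1 (0.0926) and without Osoc replicate 1 (0.0618). By the brightest probe set of each gene, 1 of 6 leaf markers rose and 2 fell in Ossl against Osoc, the latter being PORA and PORB. By the same rule no marker passed in Ossl against OsPE, and 0 of the 4 root markers tested passed in any comparison. Of all probe sets tested, 7.46% passed in Osoc against OsPE, 7.92% in Ossl against OsPE and 11.2% in Ossl against Osoc. Dimmer probe sets of RCA, a leaf marker, gave calls where its brightest did not. The dimmest of its 4 had a log2 difference of -0.31 in Ossl against OsPE (limma adjusted p = 0.00392). All its dimmer ones fell in Ossl against Osoc (0.00989, 0.00848 and 0.000186). CAB2R, the leaf marker that rose there, did not pass on its dimmer probe set (0.105). The probe sets of GLUA2 differed in sign in Osoc against OsPE, with -0.30 on the brighter and 0.61 on the dimmer. Neither passed (limma adjusted p = 0.0537 and 0.275). The part of these markers in the results was not tested. Array medians lay between 37.4 and 42.8 signal units, and the number of arrays limits the precision.

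RGB1 gave a signal of 3070.7 and 3540.5 on the OsPE arrays, 3617.3 and 2916.3 on the Osoc arrays, and 4234.0 and 3698.4 on the Ossl arrays. Both Ossl arrays lay above the other 4, while the OsPE values lay within the range of the Osoc values. The gene was well expressed, since its signal stood between percentile 93.4 and percentile 95.8 of the probe sets of its array. The mean signals were 3306 ± 332 in OsPE, 3267 ± 496 in Osoc and 3966 ± 379 in Ossl (SD, n = 2 each).

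LST8 gave a signal of 1039.3 and 1029.7 in OsPE, 926.0 and 989.6 in Osoc, and 871.3 and 888.0 in Ossl. The lines stood in the order OsPE, Osoc, Ossl, with no overlap between the arrays of any pair of lines. The gene lay between percentile 82.1 and percentile 83.7 of its arrays. The mean signals were 1034.5 ± 6.79 in OsPE, 958 ± 45.0 in Osoc and 880 ± 11.8 in Ossl (SD, n = 2 each).

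**Figure D1:**
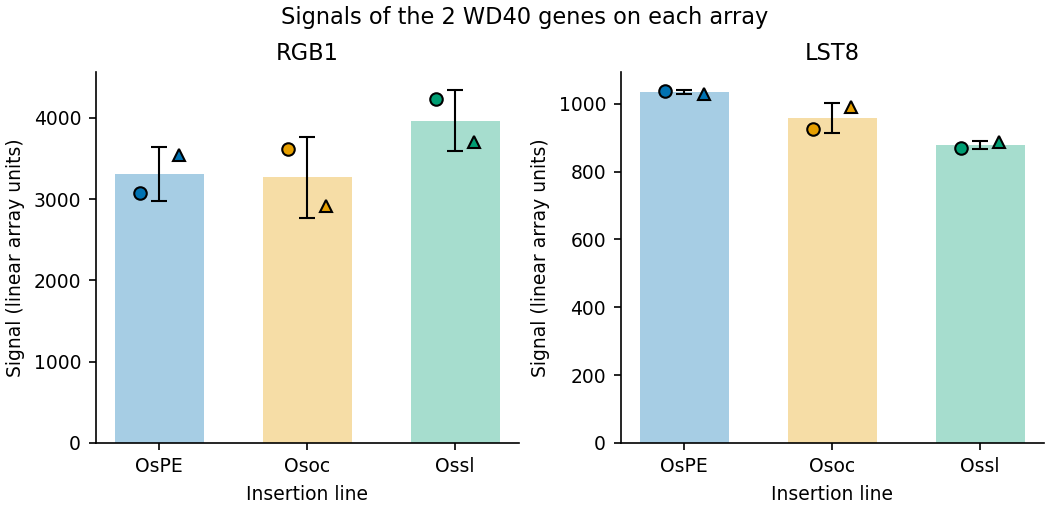
Signal in linear array units for RGB1 (left) and LST8 (right) in the lines OsPE, Osoc and Ossl; bars are means of 2 arrays, error bars the SD, circles replicate 1 and triangles replicate 2. Both Ossl arrays were above the other 4 for RGB1 and below the other 4 for LST8.

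The lines were compared with limma on log2(signal + 16), so each fold is a ratio of signal + 16, and p-values were adjusted by Benjamini-Hochberg over the 39629 probe sets tested. The threshold was an adjusted p of 0.05. Neither gene passed in any of the 3 comparisons. Over all probe sets tested, 7.46% passed in Osoc against OsPE, 7.92% in Ossl against OsPE and 11.2% in Ossl against Osoc, and the count of 0 of 2 genes lies near that background. The comparisons share arrays and are therefore not independent of each other.

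In Osoc against OsPE, RGB1 differed by -0.022 on the log2 scale (SE 0.11, limma adjusted p = 0.949). The 95% interval of its fold ran from 0.840 to 1.16, so a change of 1.5-fold in either direction lay outside it. The sign of this value is not settled, because without Osoc replicate 2 it was 0.13 and without OsPE replicate 2 it was 0.081. LST8 differed by -0.11 (SE 0.092, limma adjusted p = 0.590), with an interval of the fold from 0.806 to 1.07. Unadjusted p was below 0.05 for 0 of the 2 genes, beside 19.6% of all probe sets tested.

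In Ossl against OsPE the 2 genes had differences of opposite sign. RGB1 was 1.20 times as high in Ossl, a log2 difference of 0.26 (SE 0.11, limma adjusted p = 0.175, interval of the fold 1.02 to 1.41). It was 0.16 without OsPE replicate 1 and 0.16 without Ossl replicate 1 (adjusted p = 0.625 and 0.526), and 0.36 without the other array of either line. LST8 was 0.853 times as high, a log2 difference of -0.23 (SE 0.092, limma adjusted p = 0.174, interval of the fold 0.741 to 0.980). For both, the unadjusted p was below 0.05, at 0.0287 and 0.0285, and that was so for 20.5% of all probe sets tested. Over all probe sets tested, 48.4% differed by more than RGB1 and 52.9% by more than LST8. Many of these probe sets are dim, and dim probe sets spread more between replicates. The median within-line SD was 0.58 near a mean log2 signal of 5.25 and 0.061 near 11.75, where RGB1 lies. The shares among probe sets of like signal were not computed.

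In Ossl against Osoc, RGB1 was 1.22 times as high, a log2 difference of 0.28 (SE 0.11, limma adjusted p = 0.118, interval of the fold 1.04 to 1.43). It was the only one of the 2 genes with an unadjusted p below 0.05, at 0.0197, beside 23.4% of all probe sets tested. Without Osoc replicate 1, the higher of the Osoc arrays, the log2 difference was 0.44 and passed (limma adjusted p = 0.0437), which leaves Osoc with 1 array whose spread is taken from the other lines. Without Osoc replicate 2 it was 0.13 and without Ossl replicate 1 it was 0.19, neither of which passed (adjusted p = 0.592 and 0.441). Over the 6 fits that each left out 1 array, the adjusted p ran from 0.0437 to 0.592. LST8 differed by -0.12 (SE 0.092, limma adjusted p = 0.505, interval of the fold 0.800 to 1.06).

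Over the 3 lines together, limma's moderated F test gave an adjusted p of 0.145 for RGB1 and 0.251 for LST8, while 14.8% of all probe sets passed. The arrays for LST8 had no overlap in any of the 3 comparisons. Of the probe sets tested, 49.2%, 49.2% and 49.9% had no overlap in these comparisons, each taken alone. The share without overlap in all 3 at once is smaller or equal and was not computed. For RGB1 the arrays did not overlap in the 2 comparisons that involve Ossl, and they did in Osoc against OsPE. The RNAs with a poly-A tail that are added to a sample as controls of labelling were lower on the Ossl arrays, with a mean log2 difference from the other lines of -1.24 on 12 probe sets of their 5' ends and -0.52 on 12 of their 3' ends. The ratio of the 3' to the 5' signal of the rice GAPDH control was 8.65 and 8.99 in OsPE, 7.62 and 8.28 in Osoc, and 8.97 and 9.26 in Ossl. The 3' signal of this control thus far exceeded its 5' signal in every line and not in Ossl alone. The part of labelling or RNA quality in the values of RGB1 and LST8, in Ossl or in the other lines, was not tested.

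**Figure D2:**
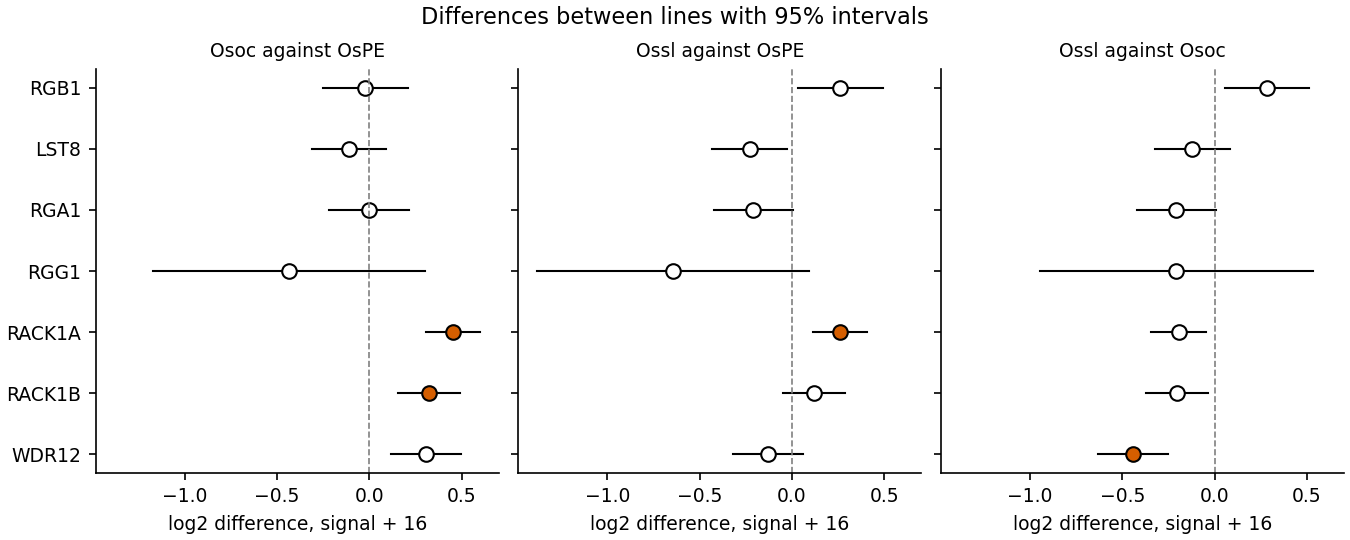
Log2 difference of signal + 16 between lines (points) with its 95% interval (lines) in the 3 comparisons. Shown are RGB1 and LST8, the 2 further G protein subunits read, RGA1 and RGG1, and the WD40 proteins RACK1A, RACK1B and WDR12. Filled points passed at adjusted p below 0.05. RGB1 and LST8 have open points throughout, and their intervals lie on opposite sides of 0 in Ossl against OsPE.

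Replicates lay farther apart for RGB1 than for LST8. For RGB1 the brighter array exceeded the dimmer by 1.15 times in OsPE, 1.24 times in Osoc and 1.14 times in Ossl, on the scale of signal + 16. For LST8 these ratios were 1.01, 1.07 and 1.02. The within-line SD of RGB1 was 0.17 on the log2 scale, larger than that of 94.7% of about 1000 probe sets of the nearest mean signal, whose median was 0.061. That of LST8 was 0.040, larger than that of 8.09% of its neighbours in signal, whose median was 0.099.

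limma moves each SD towards the value usual at that signal, which gave 0.11 for RGB1 and 0.092 for LST8. The tests therefore took RGB1 as less variable, and LST8 as more variable, than their own arrays were. With a variance prior that ignores the signal level, the adjusted p of RGB1 was 0.530 in Ossl against OsPE and 0.454 in Ossl against Osoc, and that of LST8 in Ossl against OsPE was 0.354. To pass as the fit stands, RGB1 would have needed a difference of 1.30-fold in Osoc against OsPE, 1.30-fold in Ossl against OsPE and 1.28-fold in Ossl against Osoc. For LST8 the folds needed were 1.26, 1.26 and 1.24.

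**Figure D3:**
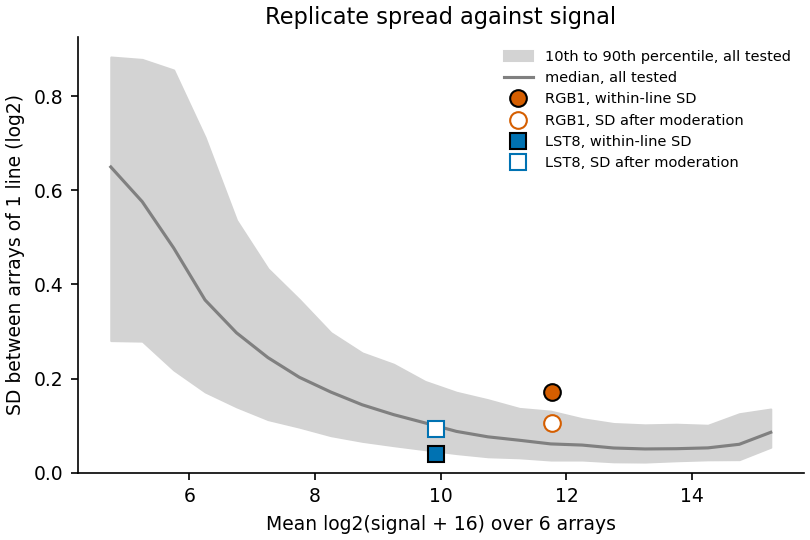
Standard deviation between arrays of the same line against mean log2(signal + 16) over the 6 arrays; the grey line and band give the median and the 10th to 90th percentile of all probe sets tested, in bins of signal. RGB1 lies above the band with an SD of 0.17 and LST8 just below it with 0.040; open symbols are the SDs after moderation, 0.11 and 0.092.

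Of the other G protein subunits searched for by name, only RGA1 and RGG1 were matched, and neither passed. Of these 2 genes, 0 rose and 0 fell in each comparison, where 7.46%, 7.92% and 11.2% of all probe sets passed. Further subunits were not read. RGA1, the alpha subunit, had signals of 1290.4 and 1191.9 in OsPE, 1151.4 and 1332.1 in Osoc, and 1107.5 and 1035.7 in Ossl. Both Ossl arrays were thus the lowest for RGA1, where they were the highest for RGB1. Of all probe sets tested, 49.2% had no overlap in Ossl against OsPE and 49.9% in Ossl against Osoc. The log2 difference of Ossl from OsPE for RGA1 was -0.21 (limma adjusted p = 0.258). RGG1, a gamma subunit, was dim, at 127.2 and 92.7 in OsPE, 60.3 and 95.4 in Osoc, and 65.9 and 61.8 in Ossl. Its log2 difference of Ossl from OsPE was -0.64, with a wide 95% interval from -1.38 to 0.094 (limma adjusted p = 0.319).

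Around LST8, the kinase gene TOR has no single-gene probe set in the table used and was not analysed here. SnRK1A, of a family of energy-sensing kinases, had a log2 difference of -0.095 in Ossl against OsPE on its brightest probe set (limma adjusted p = 0.450). Its dimmer probe set had -0.38 (adjusted p = 0.211), and the mean of both had -0.24. SNRK1B, of the same kinase family, had -0.077 (adjusted p = 0.721). Of 7 autophagy genes measured, 0 rose and 0 fell in each of the 3 comparisons, with median log2 differences of -0.083 in Osoc against OsPE, -0.018 in Ossl against OsPE and 0.042 in Ossl against Osoc. The medians of all probe sets tested were -0.030, -0.024 and 0.0036, and 7.46%, 7.92% and 11.2% of these probe sets passed. LST8 and these genes thus gave no call.

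WD40 proteins with no OsWD40 number in the annotation used did give calls. PORA and GLB1 among the tissue markers passed in the same comparisons, except Ossl against OsPE. RACK1A, a scaffold that sits on the small ribosomal subunit and is related in sequence to G protein beta subunits, read 5492.5 and 5961.5 in OsPE, 8095.6 and 7593.1 in Osoc, and 6556.9 and 7153.7 in Ossl. It rose 1.37-fold in Osoc against OsPE (limma adjusted p = 0.00152) and 1.20-fold in Ossl against OsPE (adjusted p = 0.0356). The second of these calls ended under 11 of the 18 alternatives, with median centring (adjusted p = 0.143) and without any 1 array other than Ossl replicate 1 (0.0523 to 0.311) among them. The first ended without the variance trend (adjusted p = 0.209). The fold of RACK1A in Ossl against OsPE is thus the same as that of RGB1, 1.20, with a moderated SE of 0.068 for RACK1A and 0.11 for RGB1.

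Its paralog RACK1B rose 1.25-fold in Osoc against OsPE (limma adjusted p = 0.0228), a call that ended without either OsPE replicate (0.119 and 0.159) and without Osoc replicate 1 (0.199), and also with no filter on dim probe sets (0.0541). WDR12, which acts in the assembly of the large ribosomal subunit, was 1.36-fold lower in Ossl than in Osoc (limma adjusted p = 0.00604), with signals of 1363.7 and 1300.6 in Osoc and 957.7 and 998.0 in Ossl. That call ended without Osoc replicate 1 (adjusted p = 0.0581). Of these 3 genes, 2 rose and 0 fell in Osoc against OsPE, 1 rose and 0 fell in Ossl against OsPE, and 0 rose and 1 fell in Ossl against Osoc. Over all probe sets tested, the shares that passed in these comparisons were 7.46%, 7.92% and 11.2%. The 3 genes were added once the tables were seen, so their counts do not describe WD40 proteins at large. Whether the 3 genes differ from RGB1 or LST8 was not tested.

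Other genes whose proteins work with WD40 proteins were read by list. Of all probe sets tested, 7.46% passed in Osoc against OsPE, 7.92% in Ossl against OsPE and 11.2% in Ossl against Osoc. Of 6 genes of the immune complex around RACK1, 0 rose and 1 fell in Osoc against OsPE, 0 rose and 1 fell in Ossl against OsPE, and 2 rose and 1 fell in Ossl against Osoc. The gene that fell in each was RBOHB, an NADPH oxidase of the plasma membrane, with mean signals of 7402 ± 186 in OsPE, 5894 ± 90.7 in Osoc and 4961 ± 47.2 in Ossl. Those that rose were MPK6 by 0.32 and HSP90 by 0.18 on the log2 scale (limma adjusted p = 0.0135 and 0.0333). The call of MPK6 ended without either Osoc replicate or Ossl replicate 1 (0.0566 to 0.0961), and that of HSP90 without any 1 array other than Ossl replicate 2 (0.0665 to 0.154). Those of RBOHB ended without OsPE replicate 2 in Osoc against OsPE (0.0742) and without either Osoc replicate in Ossl against Osoc (0.0613 and 0.0997). Of 3 light signalling genes PHYB alone passed, falling by 0.23 in Ossl against Osoc (limma adjusted p = 0.0266), and the call ended without any 1 array other than Ossl replicate 1 (0.0603 to 0.125). With median centring the calls of RBOHB, MPK6, HSP90 and PHYB in Ossl against Osoc ended (adjusted p = 0.0705 to 0.325). Without the variance trend every call of RACK1A, RACK1B, WDR12, RBOHB, MPK6, HSP90 and PHYB ended (adjusted p = 0.0909 to 0.383). The single named gene of the Polycomb group and that of the anaphase-promoting complex did not pass in any comparison, and no gene matched the list of MYB and bHLH partners of TTG1.

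**Figure D4:**
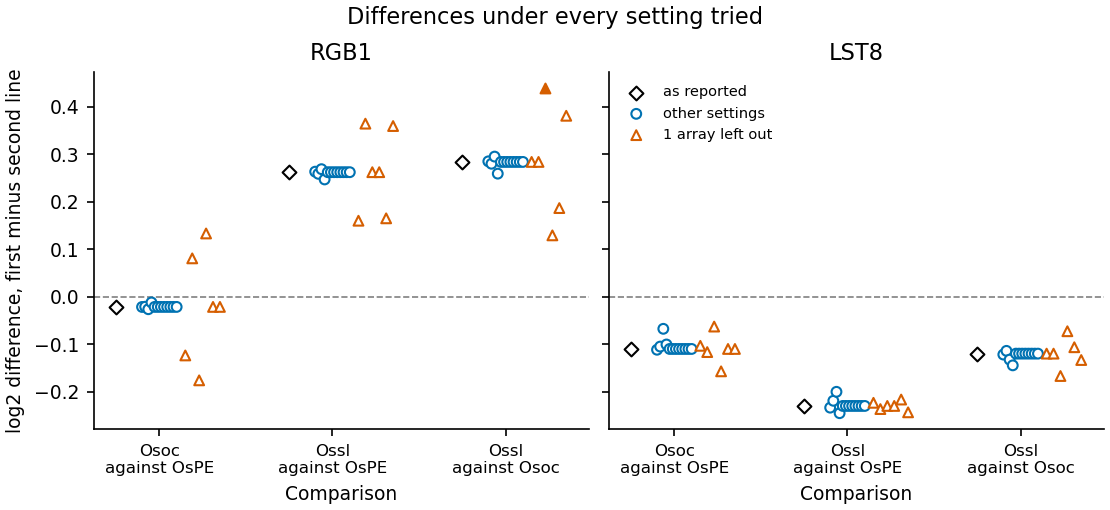
Log2 difference between lines for RGB1 (left) and LST8 (right) as reported (diamonds), under other settings (circles) and with 1 array left out (triangles); filled symbols passed the threshold. Only RGB1 in Ossl against Osoc without Osoc replicate 1 has a filled symbol, at 0.44, and only RGB1 in Osoc against OsPE changes sign.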

How the data were processed

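Biotin-labelled cRNA from total RNA was read on the Affymetrix Rice Genome array. The table deposited by the authors holds a linear signal intensity for each probe set on each array, made with GCOS 1.2 per the submitters' processing notes. The algorithm is not stated there. The mean without the lowest and highest 2% was 500.1 on every array, so the deposited scaling was kept.

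The 123 control probe sets were left out. Of 57258 others, the 39629 above the 40th percentile of their array on at least 2 arrays were tested with limma 3.58.1 in R 4.3.3 on log2(signal + 16), with lmFit and eBayes with a variance trend on all 6 arrays (3 residual degrees of freedom, prior 8.98). Tests were two-sided. The procedure was tested on simulated data. Figures were made with matplotlib 3.10.9.

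Genes were named through the platform's annotation table and RefSeq's names for ASM3414082v1 (Oryza sativa Japonica Group); 22436 probe sets matched 1 gene, 95 several and 34850 none. A probe set ending in _s_at, as for RGB1, can bind transcripts of more than 1 gene, and probe matches in Basmati were not checked. No sequences are shown.

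The members and lists were chosen with earlier results of these data known. The TOR list and the WD40 proteins with no OsWD40 number in the annotation were added once the tables were seen. Both members are named, partner genes where they passed (up to 4 per list and comparison), and subunits and kinases near RGB1 and LST8 were named after their values were seen. A gene stands by its brightest probe set. The deviations of same-numbered arrays correlated at 0.00024 to 0.014 over all probe sets tested, many of them dim. No shift common to same-numbered arrays was thus seen, which cannot show that arrays were not handled in pairs. Nothing says that replicates came from separate plants beyond the label, so p-values measure the spread between these arrays.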

Additional observations from a re-analysis of the deposited data

How the results depend on the processing

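For RGB1 and LST8, 6 differences were recomputed under 18 alternatives each, 108 values in all: other offsets (1 and 64), median centring or quantile normalization, a stricter filter on dim probe sets or none, no variance trend, robust weights, an adjusted p of 0.01, the replicate number as a block, only the arrays compared, averaged probe sets per gene, and each array left out. Of these, 105 kept their sign and did not pass, 1 passed and 2 changed sign. Only offsets, normalization and leaving out an array of the compared lines could change a sign here. The 0.01 threshold cannot add a call. The number of the 2 genes that passed was 0 in every comparison and in the F test, except that it was 1 in Ossl against Osoc without Osoc replicate 1; over the arrays left out it ran from 0 to 1. RGB1 in Osoc against OsPE ran from -0.18 to 0.13 over the arrays left out, with 0.081 without OsPE replicate 2 and 0.13 without Osoc replicate 2. With the replicate number as a block, 0 of the 2 genes passed (RGB1 in Ossl against Osoc, adjusted p = 0.116). The second brightest probe set could not be tried, since each gene has 1.

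For 13 other named genes, 629 of 702 values were as reported, 58 lost a call, 6 gained one and 9 changed sign. The changes of sign concerned values that did not pass: RGA1 in Osoc against OsPE (0.023 with quantile normalization, 0.0075 with median centring, 0.055 without OsPE replicate 1, 0.10 without Osoc replicate 1, range over the arrays left out -0.11 to 0.10), SnRK1A in the same comparison (-0.018 without Osoc replicate 1, highest 0.047), SNRK1B in Ossl against OsPE (0.092 without Ossl replicate 2, lowest -0.25) and in Ossl against Osoc (-0.084 without Ossl replicate 1, highest 0.25), RGG1 in Ossl against Osoc (0.065 without Osoc replicate 2, lowest -0.48), and GLB1 in Ossl against OsPE (-0.028 without OsPE replicate 2, highest 0.080). Over all probe sets, 28, 382 and 402 passed in Osoc against OsPE, Ossl against OsPE and Ossl against Osoc without the variance trend, against 2955, 3138 and 4441 with it. The cause was not tested. With 2 arrays per line, fits that leave 1 out take the spread of the remaining array from the other lines.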
